A study of Mus musculus with 6 samples.

Results

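Mouse pericentromeres are built of major satellite, a short AT-rich unit of about 234 bp that is repeated head to tail in long arrays and packed as constitutive heterochromatin. Its CpG sites are known to carry 5-methylcytosine (5mC) in most cell types. Genome assemblies hold only a few of these copies, so reads from many arrays that are not in the assembly can pile up on the few places that are. The results below describe 4 such places of build mm9, in 100 bp windows and at single bases. They are chr9:3000001-3040000 (400 windows, called the proximal chromosome 9 array), chr2:98500001-98510000 (100 windows), chr9:35110001-35120000 (100 windows, the distal chromosome 9 pile) and chr12:3100001-3120000 (200 windows). Together they hold 800 of the 26419029 windows that reach up to the last read of each of 22 chromosomes. The regions were chosen by the share of reads they held in these same libraries, so their shares are descriptions and were not tested. Strand and spacing of reads did not enter the choice. Stacking is computed from the same read counts, so its high values in these regions follow in part from the choice.

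The libraries came from C57Bl/6 mouse embryonic stem cells kept in leukaemia inhibitory factor with no feeder layer. Chromatin immunoprecipitation (ChIP) of crosslinked, sonicated chromatin used a rabbit antibody made by the submitters against H2A.B (H2A.Bbd), a short histone H2A variant, with rabbit IgG as background (1 library each). Methylated DNA immunoprecipitation (MeDIP) of denatured, sonicated DNA used a mouse antibody against 5mC (3 libraries) or mouse IgG (1 library). Fragments were 200 to 400 bp long in ChIP, with 20 cycles of PCR, and 100 to 400 bp long in MeDIP, with 15 cycles. Whether separate cultures gave the 3 5mC libraries is not stated, so their spread, and any p-value from it, may be technical. Another label field names the H2A.B antibody for both IgG libraries, whose title and antibody field say IgG.

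The lists held 9266471 reads for H2A.B, 811727 for IgG ChIP, 3503839, 4180959 and 1574706 for 5mC replicates 1, 2 and 3, and 201263 for IgG MeDIP. Every read name of H2A.B and 5mC replicate 1 carried 1 flow cell and its lane 3, with reads of 42 bp. All other names carried a second flow cell, with reads of 50 bp. On it lane 1 held 5mC replicate 2 and IgG MeDIP, and lane 2 held IgG ChIP and 5mC replicate 3. The 2 lists of 42 bp reads held no read on the random and unplaced sequences of mm9, while the lists of 50 bp reads had 2.27% to 3.83% of their reads there. Flow cell, read length and this difference in the set of sequences cannot be told apart, and H2A.B differs from IgG ChIP in all of them. A read name stood on more than 1 line for only 2 names, both in the replicate 2 list, so the lists give 1 place per read.

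The 4 regions together took a large and variable part of the MeDIP libraries and a smaller part of the ChIP libraries. They held 8.50% of the H2A.B reads and 12.9% of the IgG ChIP reads. They held 50.6%, 30.04% and 16.1% of the reads of 5mC replicates 1, 2 and 3, a mean of 32.2% ± 17.3 (SD, n = 3), against 31.1% for IgG MeDIP. Replicate 1 stood above IgG MeDIP and replicates 2 and 3 below it, so the 5mC mean differed from its background by less than the spread between replicates. The widest exact 95% binomial interval was that of IgG MeDIP, 30.9% to 31.3%, and these intervals cover counting error only, since PCR copies carry no molecular identifiers.

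In the proximal chromosome 9 array the share was 16.6%, 14.3% and 8.69% in 5mC replicates 1, 2 and 3 (13.2% ± 4.08, SD, n = 3) and 14.7% in IgG MeDIP. H2A.B had 3.42% of its reads there and IgG ChIP 6.54%, a ratio of 0.523 (95% interval 0.518 to 0.528). In the chromosome 2 region the 5mC libraries had 27.9%, 13.7% and 6.59% (16.1% ± 10.9, SD, n = 3) and IgG MeDIP 14.3%. Of the H2A.B reads 4.25% lay there, and of the IgG ChIP reads 5.51%, a ratio of 0.770 (0.763 to 0.778). H2A.B was thus below its background in both of the large regions.

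The distal chromosome 9 pile held 3.10%, 1.05% and 0.442% of the 5mC reads (1.53% ± 1.39, SD, n = 3) and 1.05% of IgG MeDIP. H2A.B had 0.396% and IgG ChIP 0.426% there, a ratio of 0.931 (0.899 to 0.964). The chromosome 12 pile held 2.91%, 0.957% and 0.382% of the 5mC reads (1.42% ± 1.33, SD, n = 3) and 0.995% of IgG MeDIP. At chromosome 12 alone among the regions H2A.B lay above IgG ChIP, at 0.438% against 0.405%, a ratio of 1.08 (1.05 to 1.12). In each region the order of the 5mC libraries was replicate 1, then 2, then 3. Without replicate 1, the 5mC mean fell under IgG MeDIP in the chromosome 2, distal chromosome 9 and chromosome 12 regions too, to 10.2%, 0.746% and 0.669%.

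**Figure D1:**
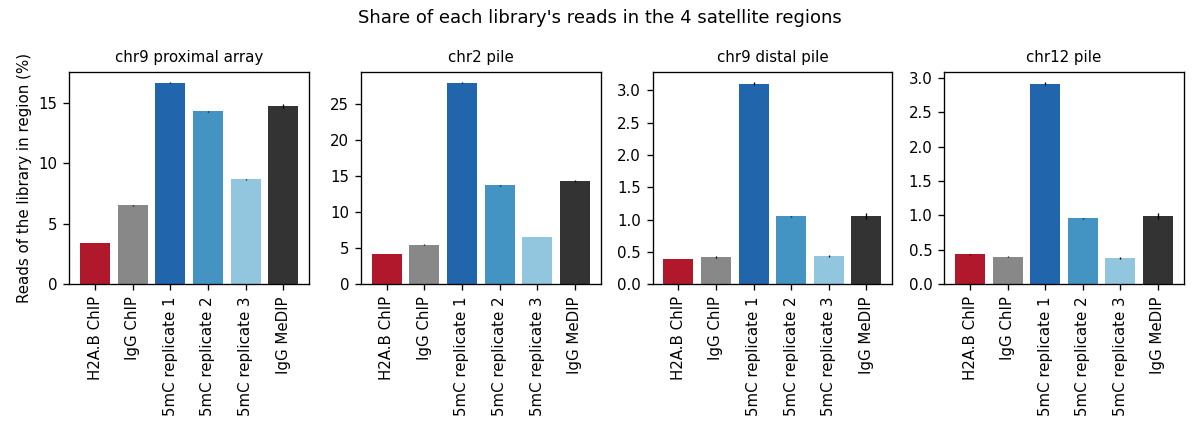
Share of each library's reads (y axis, percent of all its reads as deposited) in each of the 4 regions, 1 bar per library, with exact 95% binomial intervals as thin lines. 5mC replicate 1 is the tallest bar in each panel, from 2.91% at chromosome 12 to 27.9% at chromosome 2, and replicate 2 and IgG MeDIP stand close together.

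On the second flow cell libraries of the same lane were nearer to each other than on the first. The lists of 5mC replicate 2 and IgG MeDIP overlapped as deposited, and the shared reads were removed from replicate 2. 5mC replicate 2 and IgG MeDIP, both of lane 1, had ratios of 0.972, 0.959, 0.998 and 0.962 in the proximal chromosome 9, chromosome 2, distal chromosome 9 and chromosome 12 regions. 5mC replicate 3 stood at 1.33, 1.20, 1.04 and 0.945 times IgG ChIP, which shared lane 2 with it. Against IgG MeDIP of the other lane, replicate 3 stood at 0.591, 0.460, 0.420 and 0.384. On the first flow cell 5mC replicate 1 stood at 4.86, 6.58, 7.83 and 6.64 times H2A.B of the same lane. A comparison of 5mC with IgG within the flow cell of replicate 1 was not possible, because that flow cell held no IgG library.

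The replicate 2 list consists of 4 sorted blocks, the third of which repeats the IgG MeDIP list and was removed. Blocks 1 and 2 had 15.5% and 15.3% of their reads in the proximal chromosome 9 array, and block 4 had 2.68%. At chromosome 2 the shares were 14.7%, 15.1% and 2.68%. Block 3, the removed IgG MeDIP list, was close to blocks 1 and 2, at 14.7% in the array and 14.3% at chromosome 2. Block 4, of 373112 reads, thus had a smaller share of its reads in these regions than the others, although its read names all carry the same flow cell and lane. Its plus-strand share also differed, at 15.2% in the proximal array against 5.41% in both of blocks 1 and 2 and 6.10% in block 3. The study's labels name no source for the separate blocks. Whether the IgG MeDIP list comes from a library separate from replicate 2 was not tested. Comparisons of 5mC replicate 2, or of the 5mC mean, with IgG MeDIP may therefore lack an independent background.

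The piles differed in extent. In the proximal chromosome 9 array 385 of the 400 windows held reads in all 6 libraries, and these 385 run without a gap from 3000001 to 3038500. Reads were spread over this stretch without a dominant window: the median window had 0.153% of the region's reads, averaged over the 6 libraries, and the highest 2.03%. Of the windows beyond 3038500, 5 were empty in all libraries and 10 held reads in only some. The first 3 windows by that average were 3023501 to 3023600, 3018001 to 3018100 and 3004201 to 3004300.

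The leading window, chr9:3023501-3023600, held 7801, 12517 and 3401 reads of 5mC replicates 1, 2 and 3, 682 of IgG MeDIP, 4420 of H2A.B and 1342 of IgG ChIP. As a share of the reads in the array this was 1.34% in 5mC replicate 1 and 1.40% in H2A.B, against 2.53% in IgG ChIP, 2.31% in IgG MeDIP, and 2.09% and 2.49% in the other 5mC replicates, 2 and 3. The 2 libraries of 42 bp reads were the low ones, with no overlap with the 4 libraries of 50 bp reads. The second window, chr9:3018001-3018100, showed no such split, with 1.63% to 1.88% in every library. It was the window with the most reads in 5mC replicate 1 (9970 reads), while 3023501 to 3023600 led in the libraries of 50 bp reads and another window in H2A.B. Among the 20 windows with the most reads in each library, 10 were common to all 6 libraries. H2A.B and 5mC replicate 1 had 16 of 20 in common, 5mC replicate 3 and IgG ChIP all 20, and H2A.B and IgG ChIP 11.

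In the chromosome 2 region the reads formed 3 islands, set here as adjacent windows with at least 1% of the region's reads each. They lay at 98502401 to 98502700, 98502901 to 98503100 and 98506701 to 98507500, and with 28.0%, 4.88% and 60.5% of the reads they held most of the pile. Between and around them 52 of the 100 windows were empty in all libraries. The leading windows were chr2:98507201-98507300 and chr2:98502401-98502500, followed by chr2:98506701-98506800. The first held 28.0% of the region's H2A.B reads, 35.3% of 5mC replicate 1 and 19.3% to 22.8% in the 4 libraries of 50 bp reads. The second held 6.87% of H2A.B and 7.36% of 5mC replicate 1, against 26.1% of IgG ChIP, 31.9% of IgG MeDIP, and 31.6% and 32.0% of 5mC replicates 2 and 3. Again the libraries of 42 bp reads stood apart from those of 50 bp reads. The cause was not tested, and the first flow cell held no IgG library.

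The other piles were narrow. At distal chromosome 9 the 4 windows from 35112801 to 35113200 held 99.8% of the reads, and at chromosome 12 the 4 windows from 3109801 to 3110200 held 99.9%. The leading windows were chr9:35113001-35113100, with 47.4% to 52.6% of the region's reads in each library, and chr12:3109901-3110000, with 70.6% to 78.4%. Next came chr9:35112901-35113000 and chr9:35113101-35113200 in the first, and chr12:3110001-3110100 and chr12:3109801-3109900 in the second. Outside these windows 69 of 100 and 126 of 200 windows were empty in all libraries. The 7 flanks of 10000 bp that adjoin the regions (the assembly has no flank before the proximal array) held 13 to 97 reads each in H2A.B and at most 12 in any other library. These counts are not scaled to depth. As a share of the library, the fullest flank held 0.00105% in H2A.B and 0.000215% to 0.000994% in the others. IgG MeDIP had 3 reads in all 7, and a count of 0 there allows a share of up to 0.00149%.

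**Figure D2:**
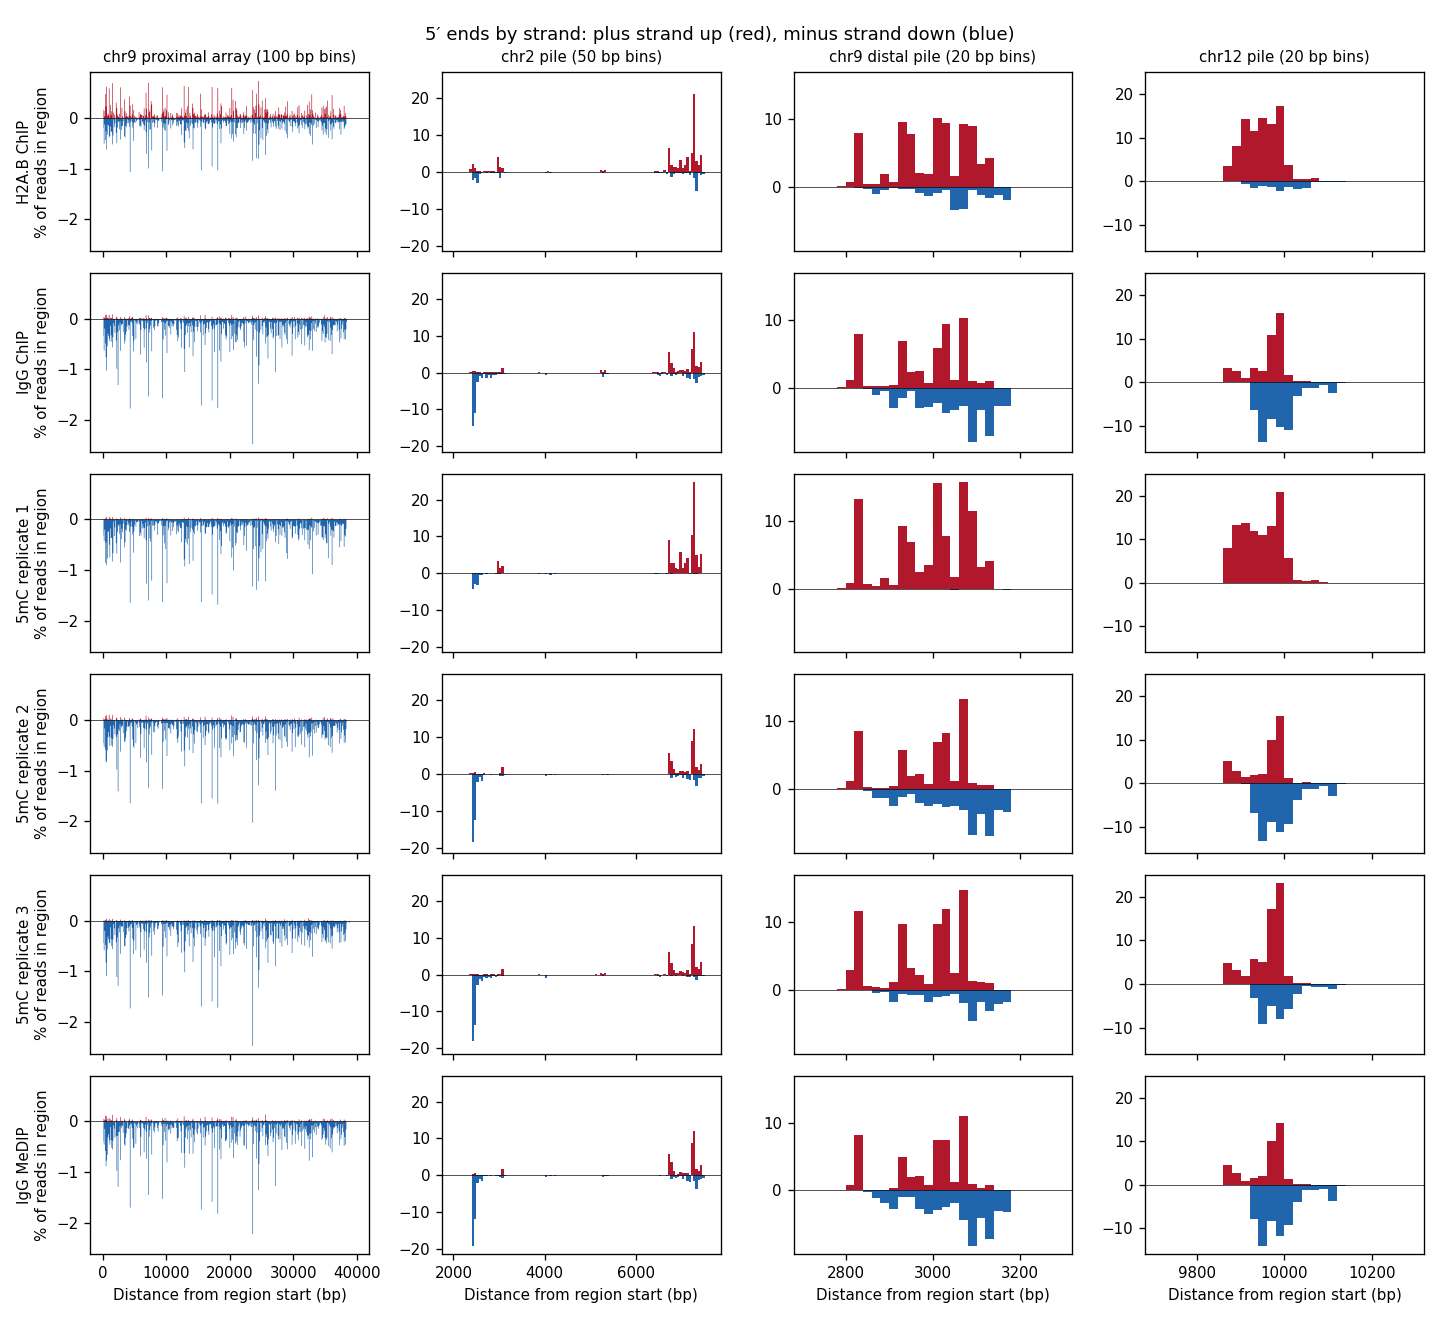
5′ ends of reads by strand along each region, with distance from the region's first base in bp on the x axis and percent of the library's reads in that region on the y axis (plus strand upward in red, minus strand downward in blue; rows are libraries and each column has its own scale and bin size). The proximal chromosome 9 array is blue in every row except H2A.B, and 5mC replicate 1 has almost no blue in the distal chromosome 9 and chromosome 12 piles.

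The strands were far from balanced. In the proximal chromosome 9 array plus-strand reads made up 2.99%, 5.57% and 2.05% of the reads of 5mC replicates 1, 2 and 3 (3.54% ± 1.82, SD, n = 3), 6.10% of IgG MeDIP and 5.09% of IgG ChIP. H2A.B had 40.8% there, far above the other libraries. Outside the 4 regions the plus share was 53.0% in H2A.B and 45.0% in IgG ChIP. For 5mC it was 55.0%, 42.6% and 44.2% in replicates 1, 2 and 3 (47.3% ± 6.77, SD, n = 3), beside 42.6% for IgG MeDIP. Each library thus had a lower plus share at this array than in the rest of its genome, H2A.B by the least.

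The imbalance of the array held in most of its windows. Of the windows with at least 20 reads, 350 of 384 had a plus share of at most 10% in 5mC replicate 1. The same was true of 299 of 385 in replicate 2, 352 of 376 in replicate 3, 272 of 339 in IgG ChIP and 229 of 291 in IgG MeDIP. In H2A.B only 23 of 383 did, and its windows ranged from 0.825% to 97.9% plus, with a median of 37.4%. Both strands of H2A.B were covered, with 5′ ends at 45.3% of the plus-strand and 54.6% of the minus-strand bases of the 40000 bp. In 5mC replicate 1 the same values were 17.2% and 67.7%.

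In the other regions the libraries of 42 bp reads leaned toward the plus strand, most of all 5mC replicate 1. At chromosome 2 the plus share was 86.0%, 44.9% and 47.0% in 5mC replicates 1, 2 and 3, 44.1% in IgG MeDIP, 42.2% in IgG ChIP and 73.8% in H2A.B. At distal chromosome 9 it was 99.0%, 53.9% and 75.5% in the 5mC replicates, 49.1% in IgG MeDIP, 52.1% in IgG ChIP and 81.6% in H2A.B. At chromosome 12 it was 99.3%, 40.4% and 63.5% in the 5mC replicates, 37.4% in IgG MeDIP, 41.2% in IgG ChIP and 88.7% in H2A.B. The 2 libraries of 42 bp reads were the highest in each of these regions. By distinct reads the lean was smaller, but where reads stack this share only counts occupied positions on each strand. In H2A.B at chromosome 12, for example, 244 plus and 237 minus positions were occupied. At distal chromosome 9 the plus share by distinct reads was 59.3% in 5mC replicate 1, 54.4% in replicate 3 and 50.6% in H2A.B. At chromosome 12 it was 60.4%, 47.5% and 50.7%. At chromosome 2 it was 48.5% in 5mC replicate 1 and 50.2% in H2A.B. In the proximal array, by contrast, 5mC replicate 1 by reads as deposited lay among the libraries of 50 bp reads and only H2A.B stood apart.

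An exact permutation test over libraries, two-sided, gave p = 0.5 for the plus share of 5mC against IgG MeDIP in each of the 4 regions. This is the smallest value that 3 libraries against 1 allow, so the design cannot show a difference. On the second flow cell alone, 5mC replicate 2 had values close to those of IgG MeDIP in each region, while replicate 3 lay well above both in the narrow piles. Without replicate 1 the 5mC means were 3.81%, 45.9%, 64.7% and 52.0% in the order of the regions. Strand balance over chromosomes 1 to 19 and X outside the regions gave a range of 51.8% to 56.1% in H2A.B and 51.3% to 60.7% in 5mC replicate 1. It was 41.1% to 47.6% in IgG ChIP, 38.3% to 48.0% in 5mC replicate 3, 29.99% to 49.0% in replicate 2 and 30.1% to 49.3% in IgG MeDIP.

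**Figure D3:**
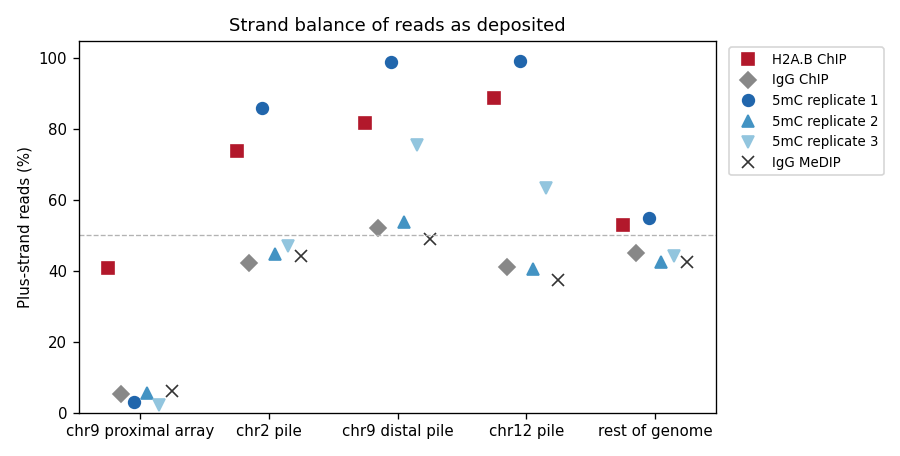
Percent of reads on the plus strand (y axis) in each region and in the rest of the genome (x axis), 1 symbol per library, with 50% dashed. In the proximal chromosome 9 array H2A.B sits at 40.8% and the other 5 libraries between 2.05% and 6.10%, while 5mC replicate 1 reaches 99.0% and 99.3% in the narrow piles.

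Within the chromosome 2 region the strand changed from one island to the next. In the first island, 98502401 to 98502700, reads were on the minus strand, with a plus share of 1.92%, 2.57% and 0.999% in 5mC replicates 1, 2 and 3, 2.82% in IgG MeDIP, 3.49% in IgG ChIP and 34.6% in H2A.B. In the third, 98506701 to 98507500, they were mostly on the plus strand, with 99.1%, 73.3% and 87.3% in the 5mC replicates, 71.7% in IgG MeDIP, 71.9% in IgG ChIP and 82.0% in H2A.B. The small second island lay nearer to balance in the libraries of 50 bp reads, with 62.6% and 58.3% plus in 5mC replicates 2 and 3, 45.5% in IgG ChIP and 61.4% in IgG MeDIP. It had 96.4% in 5mC replicate 1 and 77.2% in H2A.B. The region's plus share in the libraries of 50 bp reads is thus mostly an average over 2 large islands of opposite strand. Here too H2A.B had the highest plus share of the minus-strand island, as it had in the proximal array.

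Reads stacked on shared positions. In the proximal array the reads per occupied strand position (a base and strand with at least 1 read 5′ end) were 17.2, 17.0 and 6.91 in 5mC replicates 1, 2 and 3, 2.55 in IgG MeDIP, 3.49 in IgG ChIP and 7.93 in H2A.B. At chromosome 2 they were 285, 158 and 37.5 in the 5mC replicates, 14.2 in IgG MeDIP, 16.7 in IgG ChIP and 99.7 in H2A.B. Outside the regions they were 1.06 to 1.66. Reads per position rise with depth where reads share positions, so each library was also thinned at random to the 201263 reads of IgG MeDIP.

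After thinning, H2A.B had 6791 reads in the array and IgG ChIP 13160, while the 5mC replicates had 33209, 28812 and 17333 and IgG MeDIP 29584. Total depth was thus equal but depth within the array was not, and the values below move with both. H2A.B had the fewest reads per position in the proximal array, 1.27, against 1.84 in IgG ChIP, 2.70, 2.503 and 2.17 in the 5mC replicates and 2.55 in IgG MeDIP. At chromosome 2 it had 4.83, IgG ChIP 5.99, the 5mC replicates 30.3, 13.5 and 8.33, and IgG MeDIP 14.2. At distal chromosome 9 the values were 2.64 in H2A.B, 2.80 in IgG ChIP, 16.8, 4.93 and 3.37 in the 5mC replicates and 4.94 in IgG MeDIP. At chromosome 12 they were 4.03, 3.73, then 24.6, 6.81 and 3.87, and 7.33 in the same order. 5mC replicate 1 stacked most in each region, where it also had the largest share of reads, and outside the regions it was at 1.03, within the 1.00 to 1.28 of all libraries. An exact permutation test of 5mC against IgG MeDIP cannot decide on stacking, because reads per position rest on the counts that chose the regions. At full depth IgG MeDIP, the library with the fewest reads, also had the fewest reads per position in each region.

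**Figure D4:**
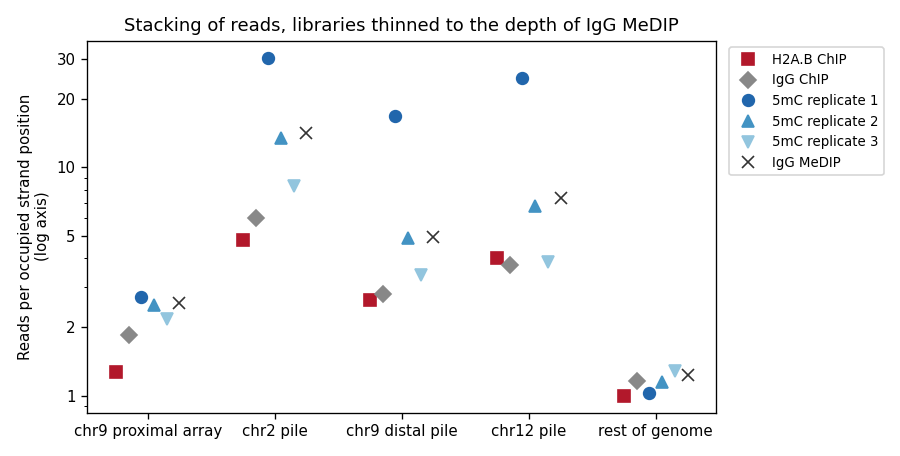
Reads per occupied strand position (y axis, log scale) in each region and in the rest of the genome (x axis), 1 symbol per library, after thinning to the depth of IgG MeDIP. 5mC replicate 1 is highest in each of the 4 regions, up to 30.3 at chromosome 2, and the rest of the genome lies between 1.00 and 1.28.

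Counting each position and strand only once therefore changes these regions more than the rest of the genome. Over the 6 libraries together, 52594 of the 80000 strand positions of the proximal array carried a 5′ end, against 4273 of 20000 at chromosome 2, 728 of 20000 at distal chromosome 9 and 533 of 40000 at chromosome 12. A distinct count grows more slowly than depth where reads share positions. By distinct reads the proximal array fell to 0.496% of H2A.B and 2.76% of IgG ChIP, and to 2.23% ± 0.343 (SD, n = 3) of 5mC against 9.15% of IgG MeDIP. The H2A.B to IgG ChIP ratio there was 0.180 by distinct reads and 0.523 by reads as deposited. At chromosome 12 it was 0.107 and 1.08, on opposite sides of 1.

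In the proximal array 6565 of the 52594 occupied positions were occupied in all 6 libraries. The positions of the shallow libraries were mostly found in the deep ones, which occupy a large part of all positions. There 95.9% of the 11587 positions of IgG MeDIP were also occupied in 5mC replicate 2 (31.6% of that library's 35126 positions), 89.5% in replicate 1 and 80.1% in replicate 3. Of the 15186 positions of IgG ChIP, 83.7% were occupied in H2A.B (31.8% of its 39969). The position with the most reads differed by library in the array, for example 3023554 on the minus strand in both 5mC replicate 3 (354 reads) and IgG ChIP (126 reads), but 3004243 in H2A.B (150 reads). None held more than 0.259% of the array's reads.

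In the other regions the leading positions recurred in part of the libraries. At chromosome 2 the minus-strand position 98502452 led in 5mC replicate 2 (14533 reads), replicate 3 (2245) and IgG MeDIP (614), and 98502446 led in IgG ChIP (915). For 5mC replicate 1 the plus-strand position 98506981 led (8016 reads), and in H2A.B 98507269 (3014 reads). At distal chromosome 9 the leading plus-strand positions were 35112826 or 35112827 in 4 libraries and 35112937 or 35112941 in the others, 5mC replicate 3 and H2A.B. At chromosome 12 position 3109975 led in 5mC replicates 2 and 3 and IgG ChIP, and 3109979, 3109998 and 3109983 led in H2A.B, 5mC replicate 1 and IgG MeDIP. Such a position held at most 3.59% of its region's reads, so no region rested on a single stacked position.

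At the distal chromosome 9 pile the plus-strand 5′ ends fell into much the same peaks in every library. The 4 highest, taken as sums over 5 bases at least 30 bp apart after the profiles had been seen, began with 35112828 in all 6 libraries and went on with 35112936 to 35112939, 108 to 111 bp further. The third varied between 35113016 and 35113032, and the last lay at 35113064 to 35113066. On the minus strand the peaks recurred less, with the first between 35112868 and 35112985 and first gaps of 61 to 188 bp. The 4 plus-strand peaks held 20.4% of the plus-strand reads of H2A.B and 23.0% of 5mC replicate 1, against 40.0% to 42.3% in the libraries of 50 bp reads. At chromosome 12 the span from the first to the 99th percentile of 5′ ends ran from 3109872 to 3110018 on the plus strand and from 3109923 to 3110119 on the minus strand in 5mC replicate 2. The minus-strand median lay 7 to 10 bp beyond the plus-strand median in the libraries of 50 bp reads, 23 bp in 5mC replicate 1 and 42 bp in H2A.B. Plus-strand ends reached further in the libraries of 42 bp reads, to 3110059 in H2A.B and 3110051 in 5mC replicate 1.

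The proximal array was the one region long enough to show the repeat. Spacing was measured as the autocorrelation of log2(1 + reads) along each strand, averaged over both strands, which is high at a lag where 5′ ends recur. Between 150 and 350 bp it was highest at a lag of 234 bp in H2A.B (0.077), 5mC replicate 1 (0.094) and replicate 2 (0.042), the length of the major satellite unit. In 5mC replicate 3, IgG ChIP and IgG MeDIP it was highest at 323, 344 and 338 bp (0.025, 0.022 and 0.022), but within 20 bp of the unit length these also peaked at exactly 234 bp (0.017, 0.021 and 0.018). Within 20 bp of the unit length all 6 libraries thus had their highest value at 234 bp, and in 3 of them a lag further off was higher. The average weighs both strands equally, and in those 3 libraries the plus strand held few reads. There the value at 234 bp was 0.026, 0.026 and 0.022 on the plus strand and 0.0082, 0.017 and 0.014 on the minus strand. The heights were small on a scale where 1 is perfect recurrence.

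Multiples of the unit gave higher values than the unit itself in most libraries. At 468 bp the autocorrelation was 0.096 in H2A.B, 0.088, 0.086 and 0.057 in 5mC replicates 1, 2 and 3, 0.052 in IgG ChIP and 0.045 in IgG MeDIP. It exceeded the value at 234 bp in each library except 5mC replicate 1. At 702 bp it was 0.033 to 0.072, and at 936 bp 0.033 to 0.062. Midway between multiples, at 117 bp, it was -0.018 in H2A.B, -0.031 in 5mC replicate 1 and 0.0070 to 0.010 in the other libraries. The contrast was weaker further on: at 585 bp it was 0.044 in 5mC replicate 2, 0.030 in IgG ChIP and 0.036 in 5mC replicate 3, where it exceeded the 0.033 at 702 bp.

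On the minus strand alone, which held nearly all reads outside H2A.B, the height at 234 bp was 0.080 in 5mC replicate 1 and 0.057 in H2A.B but 0.0082 to 0.017 in the libraries of 50 bp reads. At 468 bp the same strand gave 0.078 to 0.122 in all 6. In 5mC replicates 2 and 3 and in IgG MeDIP the minus-strand value midway, at 117 bp, was 0.028, 0.019 and 0.016, above that at 234 bp. The pattern of a weak first and a strong second multiple thus appeared in each library of 50 bp reads, with 5mC and IgG alike. On the plus strand 5mC replicate 3, IgG ChIP and IgG MeDIP had 2808, 2702 and 1805 reads over 40000 bp, too few to read a spacing from.

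**Figure D5:**
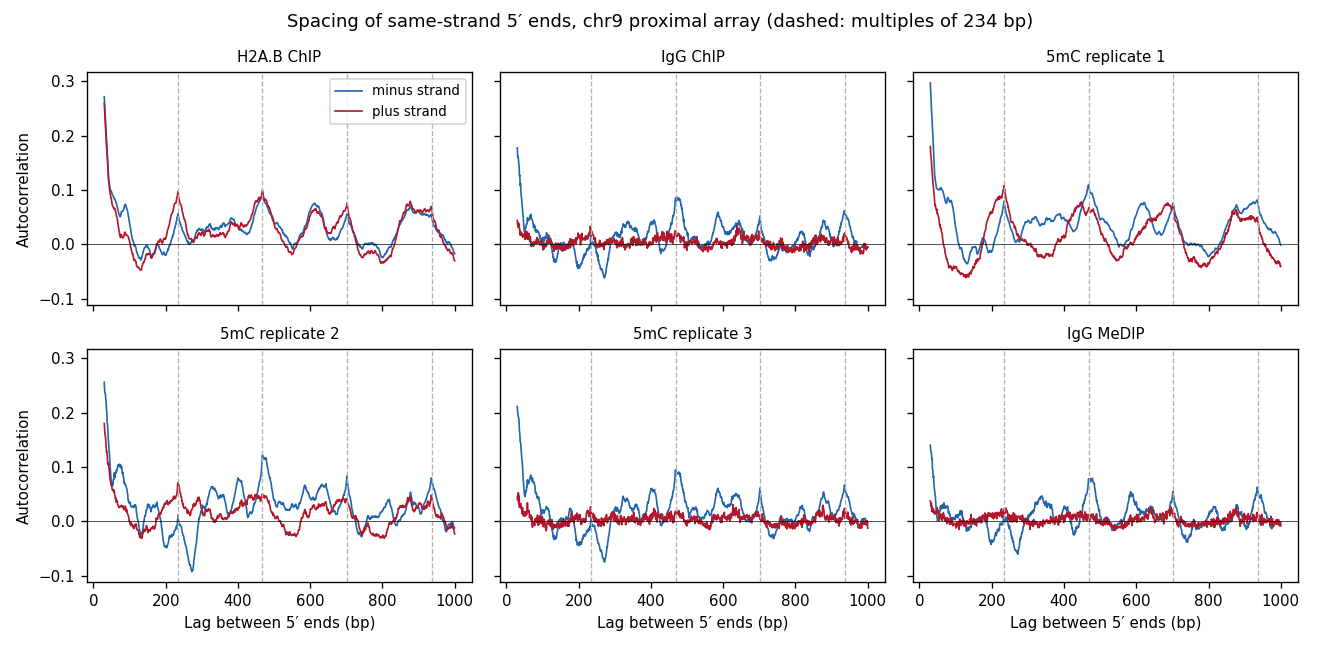
Autocorrelation (y axis) of log2(1 + reads) at single bases of the proximal chromosome 9 array against the lag between 5′ ends in bp (x axis, from 30 bp), 1 panel per library, with each strand as a line and multiples of 234 bp dashed. H2A.B peaks at 234 bp on both strands, and the minus strand of each library of 50 bp reads has its larger peak near 468 bp.

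The same spacing was sought in the rest of the genome. Pairs of distinct same-strand 5′ ends at the unit length were 1.00 times as frequent as pairs at somewhat shorter and longer distances in H2A.B, 1.02, 0.992 and 1.04 times in 5mC replicates 1, 2 and 3, 1.03 times in IgG ChIP and 1.11 times in IgG MeDIP. In the proximal array the ratios by the same count were 1.04, 1.02, 1.013, 1.04, 1.06 and 1.12. By this count, which uses only the presence or absence of an end, the array and the rest of the genome differed little. In the chromosome 2, distal chromosome 9 and chromosome 12 regions the autocorrelation had its highest value at 150 to 160 bp, at or near the edge of the range searched, as it fell away with the width of the pile. No repeat length could be read there, and that these piles are major satellite was not checked against sequence.

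In the proximal array, window profiles with both strands added were most alike between libraries of the same flow cell. Across its 400 windows Spearman's rho was 0.913 between H2A.B and 5mC replicate 1, and 0.978 to 0.991 among the 4 libraries of 50 bp reads. Between the flow cells it was 0.802 to 0.823 for H2A.B and 0.858 to 0.865 for 5mC replicate 1. 5mC replicate 2 was closer to IgG MeDIP (0.991) than to 5mC replicate 3 (0.985) or replicate 1 (0.864). With strands kept apart, Pearson's r of 5mC replicate 1 was 0.751 with H2A.B and 0.881 to 0.885 with the 4 others, so the order turned. Windows of 1 region share sequence and alignability, so these values describe the profiles and carry no p.

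At chromosome 2 Pearson's r of the reads per window was 0.985 between H2A.B and 5mC replicate 1, 0.992 to 1.00 among the libraries of 50 bp reads and 0.735 to 0.786 between the flow cells. Spearman's rho did not show this split. It was 0.914 between H2A.B and 5mC replicate 1, 0.916 to 0.979 among the libraries of 50 bp reads and 0.891 to 0.957 between the flow cells. Pearson's r on a log2 scale was 0.973 to 0.996 over all pairs. In the narrow piles r was at least 0.966 between any libraries, since 1 window held a large part of all reads there, and it does not separate the libraries. With strands kept apart at chromosome 12 it fell to 0.595 between 5mC replicates 1 and 2 and to 0.547 between replicate 1 and IgG MeDIP, and stayed at 0.998 between 5mC replicate 2 and IgG MeDIP. H2A.B went with 5mC replicate 1 in this, at 0.987, and had 0.670 with 5mC replicate 2 and 0.626 with IgG MeDIP. 5mC replicate 3, of 50 bp reads, belonged to neither side. It had 0.933 with H2A.B, 0.885 with replicate 1, 0.889 with replicate 2, 0.908 with IgG ChIP and 0.861 with IgG MeDIP. Single windows of the chromosome 12 pile still differed between libraries, with ratios of 0.0700 to 2.04 for H2A.B over IgG ChIP.

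Single windows of the proximal array showed where H2A.B and IgG ChIP departed from each other. Relative to all reads of the array, H2A.B stood at a median of 0.926 times IgG ChIP over the 254 windows with at least 50 reads in both, with 0.428 as the 10th percentile and 1.76 as the 90th. It was lowest, 0.0749, at chr9:3002301-3002400 and highest, 4.78, at chr9:3013401-3013500. The ratio of 5mC replicate 1 to IgG MeDIP was also lowest at 3002301 to 3002400, at 0.0780. For 5mC replicate 2 over IgG MeDIP, of 1 lane, the range over 181 windows was only 0.754 to 1.34, and for replicate 3 over IgG ChIP 0.592 to 1.45 over 254 windows. Replicate 3 over IgG MeDIP, of the same flow cell, ranged from 0.529 to 1.57. Within the first flow cell and its lane the range was wider, from 0.120 to 2.53 over 378 windows for 5mC replicate 1 over H2A.B. In this array departures of more than 2-fold were thus seen between the flow cells and within the first. They were not seen in these comparisons within the second. At chromosome 2 they were: replicate 3 ranged from 0.373 to 6.44 over IgG MeDIP and from 0.276 to 1.23 over IgG ChIP. Replicate 2 over IgG MeDIP ranged only from 0.835 to 1.35 there. At chromosome 12 replicate 3 over IgG MeDIP went down to 0.328.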

How the data were processed

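Aligned reads of 6 libraries were available as lists of chromosome, start, end, read name, score and strand. Per the labels, scores are not explained; the deposited score was the constant 255 throughout and was not used. The submitters' processing notes name Bowtie, build mm9 and FastQC, without versions. How reads with several matches were handled is not stated in the sources used here. No mm9 sequence was used, so no sequence is printed and no gene was placed.

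The members and measures were chosen with earlier results of these data known. Lines without the tab format (1 in H2A.B, 8 in 5mC replicate 1) and the 201263 IgG MeDIP reads in the replicate 2 list were left out. Reads were placed by their 5′ end, coordinates count from 1, and shares are of all reads of a list, counted as deposited. Named windows are the first 3 of each region by mean share over the 6 libraries, and named positions those with the most reads; other windows named were chosen after their values were seen. Intervals are exact (Clopper-Pearson, 95%). Tests were exact permutations over libraries (two-sided, doubling the smaller tail). The spacing measure was tested on simulated repeats of known unit. Python 3.11.15, numpy 2.4.6, scipy 1.17.1, pandas 2.3.3 and matplotlib 3.10.9 were used. Alternatives were distinct reads, other denominators, midpoints, other parts of the replicate 2 list, left-out replicates, other transforms and window sizes, and thinning.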

Additional observations from a re-analysis of the deposited data

How the results depend on the processing

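Of the values under other settings, 123 stayed within the spread or counting error of the value reported, 64 moved beyond it and 1 reversed. The spread of the 5mC replicates was wide, so a 5mC value within it could still differ much from the value reported. Values below follow the order proximal chromosome 9, chromosome 2, distal chromosome 9, chromosome 12. The log2 ratio of shares of 5mC to IgG MeDIP, -0.15, 0.17, 0.54 and 0.51 with reads as deposited, was -2.04, -2.64, -2.89 and -2.91 with distinct reads, and that of H2A.B to IgG ChIP -2.48, -3.32, -3.32 and -3.22. This turned the direction for 5mC in the last 3 regions, and for H2A.B at chromosome 12 from 0.12. By construction a distinct count grows more slowly than depth where reads stack. Without replicate 1 the 5mC ratio also turned in the last 3 regions, to -0.49, -0.50 and -0.57. In the proximal array it turned to 0.07 without replicate 3 and to 0.01 with reads outside the regions as the denominator. The sign of the 5mC ratio is therefore not settled in any region. With that denominator the H2A.B ratio was -1.01, -0.45, -0.17 and 0.045. Without random and unplaced sequences, a setting chosen after seeing the data, it was -0.97 and -0.41 in the first pair of regions. The mean plus-strand share of 5mC in the proximal array was 18.7% with distinct reads. In the last 3 regions it was 45.1%, 54.6% and 51.7%, from 59.3%, 76.1% and 67.8% with reads as deposited. Thinning brought the 5mC reads per position from 13.7, 160, 88.8 and 131 to 2.46, 17.4, 8.36 and 11.7. The falls at distal chromosome 9 and chromosome 12 were counted as within the spread.

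The lag with the highest autocorrelation in the proximal array was 234 bp for 5mC, and 234 to 323 bp when single replicates were left out, with 323 bp without replicate 1. On the minus strand alone, also chosen after seeing the data, it was 323 bp for 5mC and 335 bp for IgG ChIP. For IgG ChIP it was 321 bp by presence or absence, 233 bp without the logarithm and 233 bp without the 1% of positions with the most reads. For IgG MeDIP it was 334 bp without the logarithm. For H2A.B it was 234 bp under each of these settings. The spacing of the IgG libraries therefore depends on the setting, and the cause was not tested.

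In the other regions, where no repeat length could be read, the lag without the logarithm was 170, 158, 169 and 184 bp at chromosome 2 for 5mC, H2A.B, IgG ChIP and IgG MeDIP. It was 185, 187, 236 and 236 bp at distal chromosome 9. At chromosome 12 it was 158, 159 and 157 bp for 5mC, IgG ChIP and IgG MeDIP. Without the leading positions it was 153 and 155 bp for IgG ChIP and IgG MeDIP at chromosome 2, and 154, 154 and 156 bp for 5mC and those at distal chromosome 9. At chromosome 12 it was 173 bp for 5mC and 184 bp for H2A.B. Presence or absence gave 150 bp for IgG ChIP at chromosome 2, and the minus strand 155 and 153 bp for 5mC and IgG ChIP at distal chromosome 9.

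Spearman's rho over windows moved mainly in the narrow piles, where most windows are empty. Between H2A.B and IgG ChIP it was 0.894 in the proximal array and 0.890 at chromosome 2 with distinct reads. In windows of 50 bp it was 0.918, 0.571 and 0.271 in the last 3 regions, and in windows of 200 bp 0.907 at chromosome 2 and 0.139 at chromosome 12. Among 5mC libraries it was 0.953, 0.746 and 0.397 in windows of 50 bp and 0.900, 0.530 and 0.154 in windows of 200 bp. Between 5mC and IgG MeDIP it was 0.968, 0.852 and 0.632, and 0.948, 0.722 and 0.459, and 0.962 at chromosome 2 with distinct reads.

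No paired analysis was possible because only 5mC has replicates. With 3 libraries against 1 the exact permutation test cannot go below p = 0.5, and H2A.B and both IgG libraries have no replicate.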
